A study of Mus musculus with 12 samples.

Results

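The cytosolic ribosomal protein genes were taken as all rows of the deposited table whose gene name is Rpl or Rps followed by a number (with an a, l, x or y after it where there is one), or Rplp0, Rplp1, Rplp2 or Rpsa. That rule found 80 of the 44345 listed genes, 49 of the large and 31 of the small ribosomal subunit, and used no measured value. Of these, 78 passed a filter on low values (a level of 0.5 or more in 3 or more of the 12 libraries), 47 large and 31 small, and 77 were at or above 0.5 in every library. The other one, Rpl3l, passed through some libraries only. Rpl10l and Rpl39l did not pass. Among those the rule leaves out are Rps3a1, Fau and Rack1, which also encode ribosomal proteins.

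Cytosolic ribosomes are built from a small subunit, which reads the mRNA, and a large subunit, which joins the amino acids and holds the tunnel through which the new chain leaves. Most of their proteins are present once in each ribosome, and their mRNAs are known for a stretch of pyrimidines at the very start of the transcript, the 5-prime terminal oligopyrimidine (TOP) motif, through which the growth-controlling kinase complex mTORC1 sets how much of each mRNA is translated. In sensory neurons, ribosomal protein mRNAs are found in axons as well as in the cell body.

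RNA was measured by poly(A) RNA sequencing in lumbar dorsal root ganglia, which house sensory neurons whose axons run in the sciatic nerve, at spinal levels L4 to L6. All mice were C57BL/6 and 6 to 8 weeks old, and the labels give no sex, genotype change or batch. The IPA crush group was gavaged daily with indole-3-propionic acid (IPA, a product of gut bacterial tryptophan metabolism) at 20 mg/kg for 10 days before a crush of the sciatic nerve. The protocol adds 3 further days of IPA before the ganglia were taken. The vehicle crush group received phosphate-buffered saline in place of IPA, and the labels leave unclear whether its gavage went on after the crush. The IPA intact and vehicle intact groups had the same 10 days of gavage and no crush, and no sham operation is described. Crush groups therefore differ from intact groups by surgery and by 3 further days as well as by the nerve lesion. Each group had 3 libraries, each from the pooled ganglia of 2 mice.

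Levels are given in the deposited unit, which behaves like CPM (read counts scaled to library size) with no division by gene length. The reads recovered from the values came to 44808587 to 62501969 in IPA crush libraries, 40938034 to 58013747 in vehicle crush, 51482387 to 56798355 in IPA intact and 41694916 to 49481144 in vehicle intact libraries. Markers of sensory neurons, satellite glia and Schwann cells were present in every group, and none of them was at 0 in all libraries. Fold changes come from 1 limma model over all 12 libraries on log2(level + 0.5), a scale that understates the change of low genes. They carry a standard error (SE), and adjusted p-values are Benjamini-Hochberg values over 15603 genes, with a threshold of 0.05.

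In the 12 libraries the ribosomal protein genes were higher after crush, in both subunits and under both treatments. Their summed level was 8683, 8504 and 8815 in IPA crush libraries and 8121, 8441 and 8297 in vehicle crush libraries, against 6852, 6819 and 6935 in IPA intact and 6486, 6090 and 6626 in vehicle intact libraries. Every crush library lay above every intact library. As a share of the summed level of all genes this was 1.07% ± 0.0171 in IPA crush and 1.02% ± 0.0258 in vehicle crush libraries, against 0.848% ± 0.00909 in IPA intact and 0.79% ± 0.0323 in vehicle intact libraries (SD, n = 3 each).

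Large-subunit genes summed to 5472 ± 68.6 in IPA crush and 5196 ± 93.5 in vehicle crush libraries, against 4382 ± 50.7 in IPA intact and 4104 ± 185 in vehicle intact libraries (SD, n = 3 each). Small-subunit genes summed to 3195 ± 115 in IPA crush and 3090 ± 68.4 in vehicle crush libraries, against 2487 ± 10 in IPA intact and 2297 ± 94.2 in vehicle intact libraries. The ratio of the large to the small sum was 1.68, 1.67 and 1.69 in vehicle crush libraries, against 1.81, 1.77 and 1.78 in vehicle intact libraries, with no overlap. Under IPA the ratio was 1.75, 1.74 and 1.65 in crush libraries, against 1.75, 1.75 and 1.78 in intact libraries, where the groups overlap. The ratio is one of sums, and its difference between crush and intact libraries was not tested. In pooled tissue, a change in the number of cells of a type and a change in the RNA of each cell cannot be told apart.

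**Figure D1:**
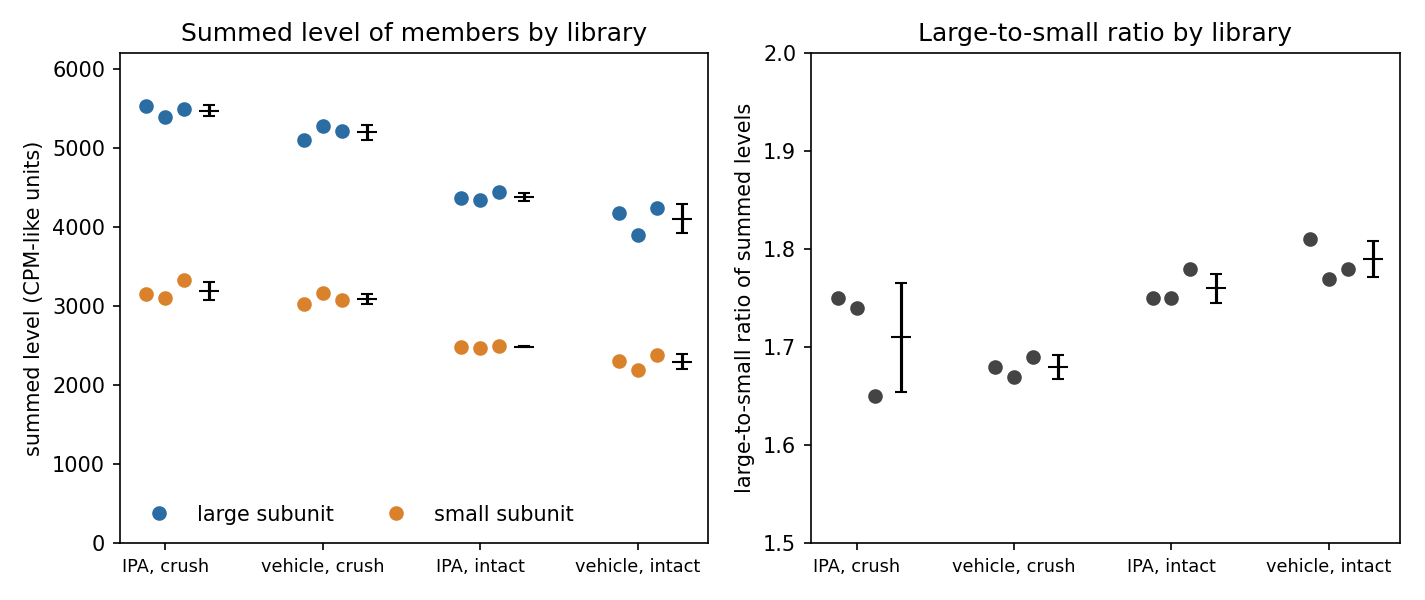
Left, summed level of the large-subunit (blue) and small-subunit (orange) genes in each library (points) with the group mean ± SD beside them (n = 3); right, the ratio of the 2 sums on an axis that starts at 1.5. Sums in all 6 crush libraries lie above those in all 6 intact libraries, and the ratio is 1.67 to 1.69 in vehicle crush libraries against 1.77 to 1.81 in vehicle intact libraries.

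Gene by gene, in vehicle mice 72 of the 78 tested members rose after crush and 0 fell, which is 92.3% of the members, against 23.6% of all 15603 tested genes called higher and 24.4% called lower. The median log2 change of the members was 0.37, or 1.29-fold, with a range of 0.01 to 0.85, and 4 members changed by more than 1.5-fold. In IPA mice 71 of the 78 rose and 0 fell, 91% of the members, against 21.2% of all tested genes called higher and 22.5% called lower, with a median of 0.35 (1.27-fold) and a range of 0.03 to 0.83. The median over all tested genes lay between -0.02 and 0.01 in these and the IPA contrasts. At an unadjusted p under 0.05, 75 members were higher and 0 lower in IPA mice, against 24.4% and 26.4% of all tested genes, and 74 were higher and 0 lower in vehicle mice, against 26.8% and 27.7%. On recovered reads, edgeR called 74 higher and 0 lower in IPA mice, against 22.9% and 21.5% of all tested genes, and 72 and 0 in vehicle mice, against 24.4% and 23.6%. DESeq2 called 75 higher and 0 lower in IPA mice, against 23.3% and 21.8% of all tested genes, and 72 and 0 in vehicle mice, against 24% and 24.3%. The 2 crush contrasts share 1 model and its spread but no libraries.

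Of the large-subunit genes 42 of 47 rose in vehicle mice (median 0.35) and 42 in IPA mice (median 0.33). Of the small-subunit genes 30 of 31 rose in vehicle mice (median 0.39) and 29 in IPA mice (median 0.35). The levels of the 3 crush libraries did not overlap those of the 3 intact libraries for 74 of the 78 members in IPA mice, all higher after crush, against 27.2% of all tested genes higher and 30.8% lower without overlap. In vehicle mice they did not overlap for 71, again all higher, against 25.4% higher and 26% lower. The same 70 members rose in both treatments, and Rpl22, Rpl23a, Rpl3, Rpl3l and Rps27 passed in neither.

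**Figure D2:**
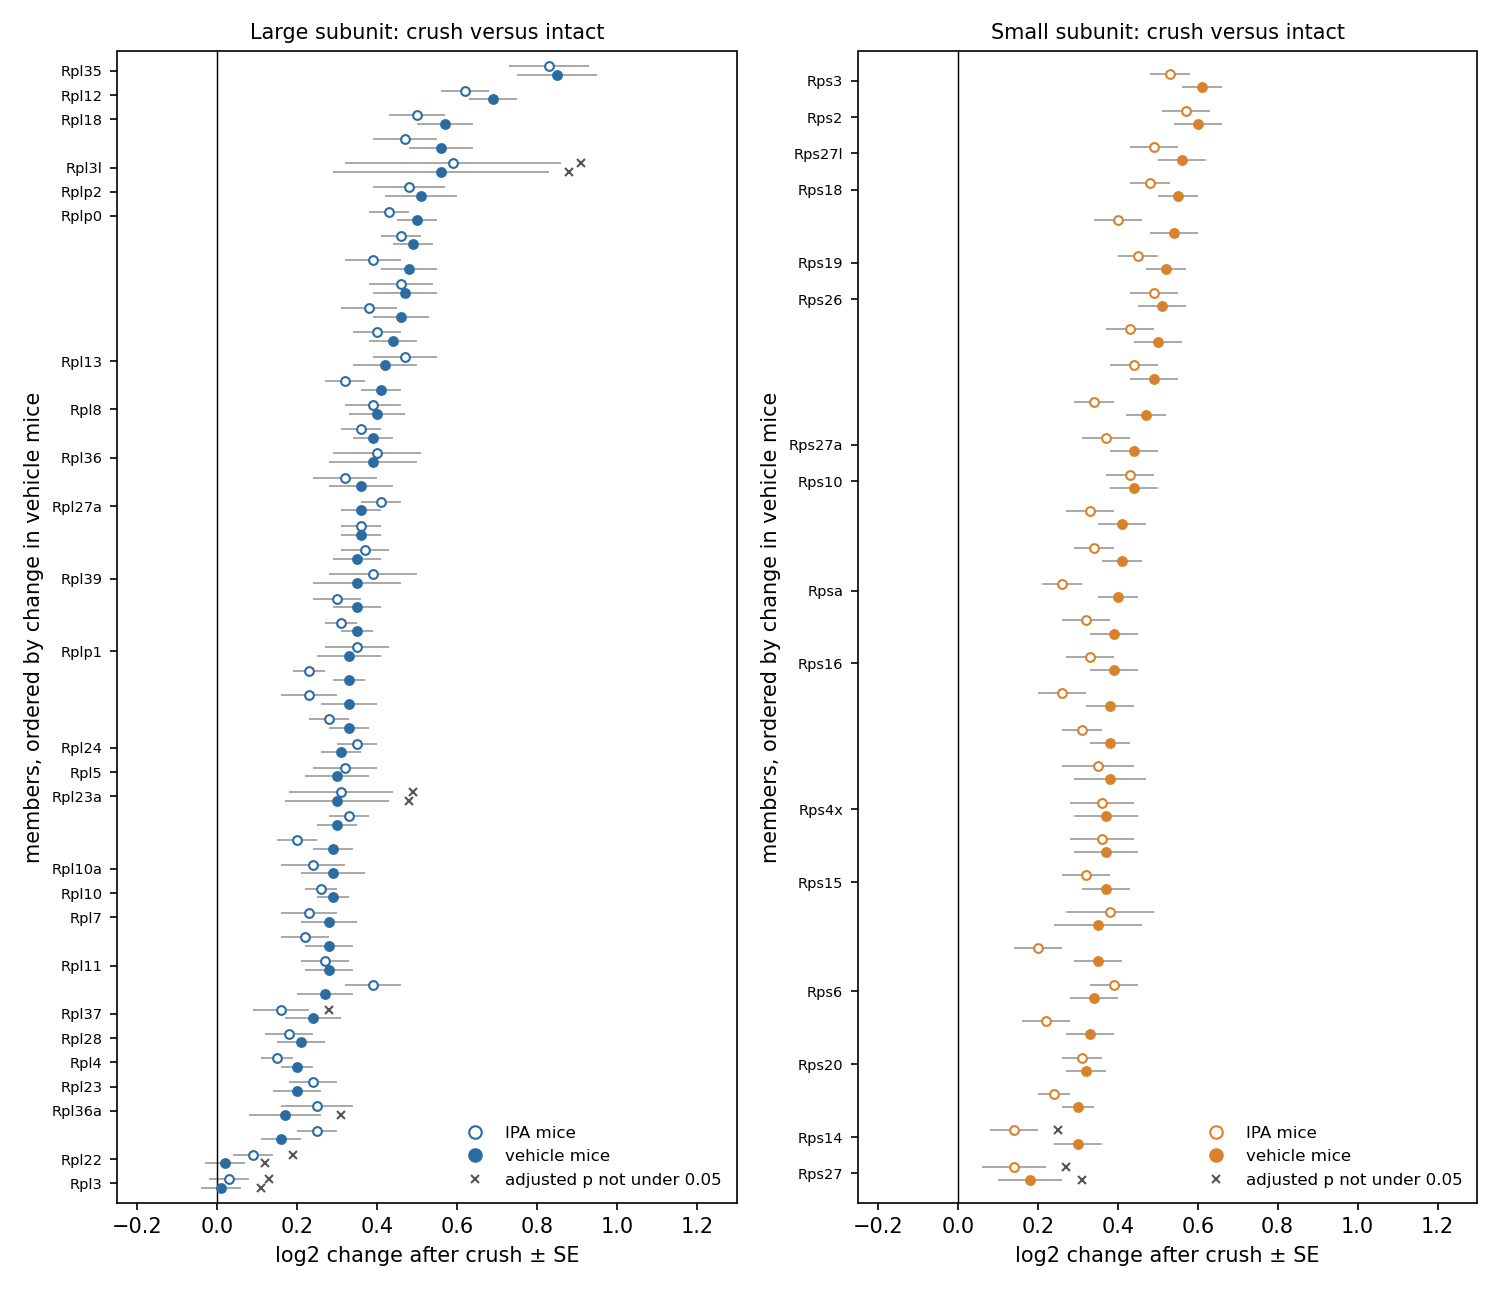
Log2 change after crush ± SE (horizontal axis) of the 47 large-subunit and 31 small-subunit genes tested, ordered by the change in vehicle mice and labelled where the text names the member, with IPA mice as open and vehicle mice as filled points and a cross beside values whose adjusted p is not under 0.05. All 78 points lie above 0 in both treatments, with Rpl35 highest at 0.83 in IPA and 0.85 in vehicle mice and Rpl3 and Rpl22 nearest to 0.

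The starts of the transcripts were read because the TOP motif is the sequence feature this gene family is known for. The sequences are the 25 bases before and the 15 bases from the annotated start on, from RefSeq on GRCm38.p6 and in the direction of the gene, and capitals mark the longest run of C and T. They are shown for the members with a RefSeq window that had the largest and the smallest changes after crush in vehicle mice. The first 4 are the largest:
Rpl35: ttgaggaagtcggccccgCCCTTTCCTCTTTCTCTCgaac
Rpl12: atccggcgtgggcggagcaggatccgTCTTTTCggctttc
Rps3: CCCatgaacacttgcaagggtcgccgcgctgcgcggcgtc
Rps2: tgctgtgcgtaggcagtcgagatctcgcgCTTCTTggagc
These lie at chr2:39005117-39005156 (minus strand), chr2:32961687-32961726 (plus), chr7:99483695-99483734 (minus) and chr17:24720038-24720077 (plus). The last 3 are the smallest:
Rpl22: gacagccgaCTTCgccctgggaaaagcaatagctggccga
Rpl36a: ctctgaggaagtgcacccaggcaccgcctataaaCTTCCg
Rps27: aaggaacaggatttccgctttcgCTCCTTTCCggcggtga
These lie at chr4:152325701-152325740 (plus), chrX:134585629-134585668 (plus) and chr3:90213634-90213673 (minus). The run was 18 bases in Rpl35, 7 in Rpl12, 6 in Rps2 and at least 3 in Rps3, where it begins at the first base shown and may extend beyond it. It was 4, 5 and 9 bases in Rpl22, Rpl36a and Rps27, so both sets hold long and short runs. Of the genes shown, only Rpl36a has its outer end in GENCODE M21 at the RefSeq start used here. In Rpl35, Rpl12, Rps3, Rps2 and Rpl22 that end lies outside the bases shown. A run shown here therefore need not lie at the start of the transcript.

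Of the tested members 58 matched a RefSeq window by symbol, and for the 10 with more than 1 window the first was used. A run of at least 8 pyrimidines within these 40 bases was present in 26 of the 58 (44.8%), against 16.3% of the 27025 windows in the table, and the median longest run was 7 bases, against 5. Over windows of 300 bases (250 before and 50 from the start) and on both strands, CTCTTT, which can lie within a pyrimidine run, was in 26 of the 58 (44.8%) against 22.9% of all windows. CCGGAAG, the core of the ETS factor motif, was in 23 (39.7%) against 9.12%, and GATGGCGG, of the YY1 motif, in 2 (3.45%) against 1.74%. These are matches of letters, with no measurement of binding or translation.

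The largest change in the limma model was that of Rpl35, whose pyrimidine run was the longest of those shown, a protein beside the exit of the tunnel (ENSMUSG00000062997, minus strand, chr2:39001580-39005624 in mm10). Rpl35 stood at 27.2, 23.7 and 22.2 in IPA crush libraries and 20.2, 22.0 and 22.4 in vehicle crush libraries, against 13.1, 13.1 and 14.0 in IPA intact and 14.0, 10.1 and 11.4 in vehicle intact libraries. All crush libraries were above all intact ones, and the log2 changes were 0.83 ± 0.10 in IPA mice (limma adjusted p = 1.77e-05) and 0.85 ± 0.10 in vehicle mice (adjusted p = 1.27e-05). Per kilobase of transcript, Rpl35 had a level of 25.8 in IPA crush, 22.8 in vehicle crush, 14.2 in IPA intact and 12.5 in vehicle intact libraries. The highest per-kilobase level was that of Rplp1, with 500.1, 437.5, 392.3 and 347.1 in the same order of groups.

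Rpl12, which sits at the base of the stalk that receives the elongation factors (chr2:32961559-32965345, plus strand), was next. It stood at 105.5, 101.6 and 95.9 in IPA crush and 91.0, 97.0 and 97.1 in vehicle crush libraries, against 63.0, 64.2 and 68.7 in IPA intact and 62.5, 55.2 and 59.0 in vehicle intact libraries. The groups did not overlap, and the log2 change was 0.62 ± 0.06 in IPA mice (limma adjusted p = 9.27e-07) and 0.69 ± 0.06 in vehicle mice (adjusted p = 3.26e-07). The stalk proteins themselves rose as well. Rplp0, the stalk's anchor, rose by a log2 of 0.43 ± 0.05 in IPA mice and 0.50 ± 0.05 in vehicle mice, and its partners Rplp1 and Rplp2 rose by 0.35 and 0.48 in IPA mice and by 0.33 and 0.51 in vehicle mice (limma adjusted p between 7.02e-06 and 0.00193 in IPA mice and between 1.43e-06 and 0.00223 in vehicle mice). Rpl18 had log2 changes of 0.50 ± 0.07 in IPA mice and 0.57 ± 0.07 in vehicle mice.

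Among the small-subunit genes Rps3, a protein of the channel through which mRNA enters (chr7:99477896-99483738, minus strand), changed most in vehicle mice. Its level was 200.2, 203.9 and 224.7 in IPA crush and 202.2, 212.8 and 209.4 in vehicle crush libraries, against 149.1, 144.5 and 141.7 in IPA intact and 134.1, 134.4 and 140.2 in vehicle intact libraries. Crush and intact libraries were apart under both treatments, with a log2 change of 0.53 ± 0.05 in IPA mice (limma adjusted p = 1.03e-06) and 0.61 ± 0.05 in vehicle mice (adjusted p = 2.22e-07). Rps2, its neighbour in the same channel (chr17:24718116-24721929, plus strand), stood at 280.1, 268.7 and 260.7 in IPA crush and 237.1, 259.9 and 258.8 in vehicle crush libraries, against 182.3, 186.3 and 177.6 in IPA intact and 157.9, 160.1 and 180.1 in vehicle intact libraries. Its log2 change was 0.57 ± 0.06 in IPA mice and 0.60 ± 0.06 in vehicle mice, again with no overlap.

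Members with known roles beyond the core of the ribosome were within the range of the others. Rps6, the small-subunit protein phosphorylated by the S6 kinases downstream of mTORC1, stood at 69.3, 72.0 and 79.5 in IPA crush and 68.2, 67.3 and 68.1 in vehicle crush libraries, against 54.6, 54.8 and 58.9 in IPA intact and 56.8, 50.1 and 54.2 in vehicle intact libraries, a log2 change of 0.39 ± 0.06 in IPA mice and 0.34 ± 0.06 in vehicle mice. Rpl5 and Rpl11, which carry 5S ribosomal RNA and can bind the p53 regulator Mdm2, rose by 0.32 and 0.27 in IPA mice and by 0.30 and 0.28 in vehicle mice. Rpsa, also known as a laminin receptor, rose by 0.26 ± 0.05 in IPA mice and 0.40 ± 0.05 in vehicle mice. Rps19, the ribosomal protein gene most often mutated in human Diamond-Blackfan anaemia, rose by 0.45 and 0.52, and Rps27a, made as a fusion with ubiquitin, by 0.37 and 0.44 in IPA and vehicle mice. Rpl4 (0.15 and 0.20) and Rpl10a (0.24 and 0.29) were among the smaller changes that passed in IPA and vehicle mice. In IPA mice Rpl4 lost its call without IPA intact replicate 3 (0.13), and Rpl10a without IPA crush replicate 1 or 2 or IPA intact replicate 1 or 3 (0.20 to 0.24).

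Rpl3, which reaches to the catalytic centre of the large subunit (chr15:80077791-80091868, minus strand), was the flattest member. It stood at 192.0, 194.4 and 209.9 in IPA crush and 192.0, 189.4 and 191.6 in vehicle crush libraries, against 194.4, 189.5 and 200.0 in IPA intact and 197.9, 183.2 and 188.3 in vehicle intact libraries. All 4 groups overlapped. The log2 change was 0.03 ± 0.05 in IPA mice (95% interval -0.07 to 0.13, limma adjusted p = 0.637) and 0.01 ± 0.05 in vehicle mice (-0.09 to 0.11, adjusted p = 0.879), so both intervals end below the median of the members. Its sign turned without vehicle intact replicate 2 in vehicle mice (-0.02) and without IPA crush replicate 3 in IPA mice (-0.01). Rpl22, an RNA-binding protein that mouse ribosomes can do without (chr4:152325742-152334071, plus strand), stood at 79.5, 83.1 and 89.2 in IPA crush and 81.1, 78.4 and 83.1 in vehicle crush libraries, against 80.4, 77.6 and 78.7 in IPA intact and 77.7, 78.7 and 82.7 in vehicle intact libraries. Its log2 change was 0.09 ± 0.05 in IPA mice (-0.02 to 0.19) and 0.02 ± 0.05 in vehicle mice (-0.08 to 0.13), also with overlapping groups.

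Rps27 was at 47.6, 45.9 and 59.0 in IPA crush and 53.0, 50.4 and 47.3 in vehicle crush libraries, against 45.7, 44.5 and 47.7 in IPA intact and 46.1, 44.7 and 42.1 in vehicle intact libraries, a log2 change of 0.14 ± 0.08 (limma adjusted p = 0.193) in IPA mice and 0.18 ± 0.08 (adjusted p = 0.0803) in vehicle mice. Rpl23a had log2 changes of 0.31 ± 0.13 and 0.30 ± 0.13, with adjusted p of 0.0761 in IPA and 0.0771 in vehicle mice, and the level in vehicle intact replicate 2 was 9.99, against 14.2 and 16.4 in the other vehicle intact libraries. Rpl37 and Rps14 passed in vehicle mice alone and Rpl36a in IPA mice alone. The differences between treatments in these changes were -0.08 ± 0.10 for Rpl37, -0.16 ± 0.08 for Rps14 and 0.08 ± 0.13 for Rpl36a, each with an adjusted p of 1 in the limma interaction contrast. Rpl36a also lost its call in IPA mice with IPA intact replicate 1, 2 or 3, or IPA crush replicate 2 or 3, left out (0.14 to 0.28), with no filter on low values (adjusted p = 0.0923), and with the replicate number as a block (adjusted p = 0.0598). It gained one in vehicle mice without vehicle intact replicate 1 (0.25).

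**Figure D3:**
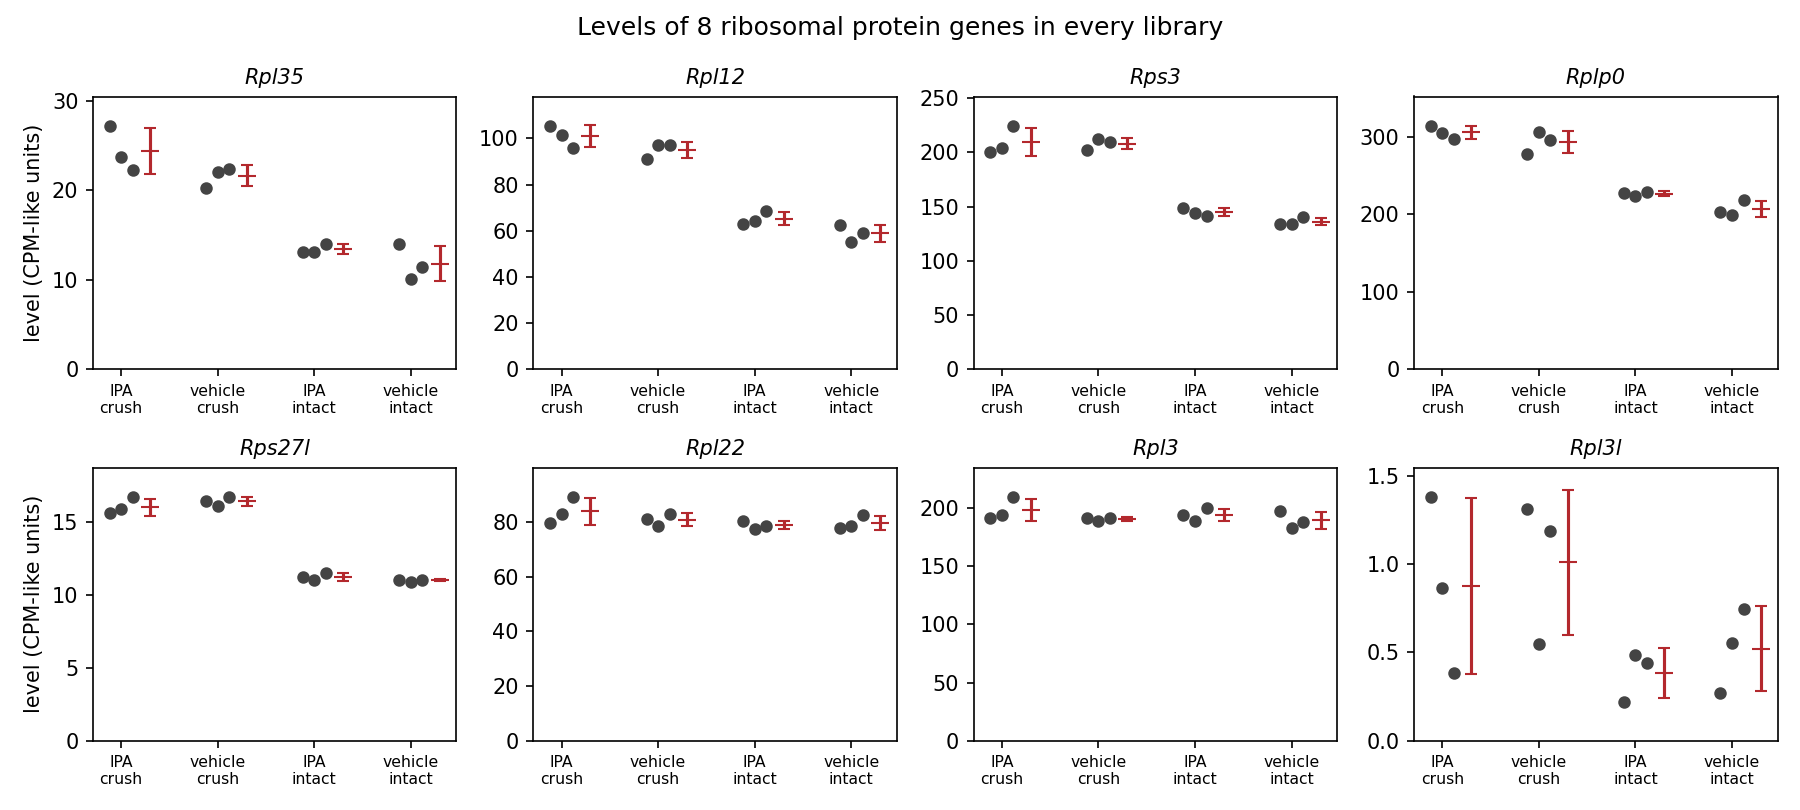
Level of 8 ribosomal protein genes in each library (points) with the group mean ± SD in red (n = 3), on axes that start at 0. Rpl35, Rpl12, Rps3, Rplp0 and Rps27l separate crush from intact libraries, Rpl22 and Rpl3 do not, and Rpl3l lies between 0.221 and 1.38 in all libraries.

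Pairs of related genes were set side by side, since a ribosome can carry either of some of them. Rps27l, the p53-inducible relative of Rps27, stood at 15.6, 15.9 and 16.7 in IPA crush and 16.4, 16.1 and 16.7 in vehicle crush libraries, against 11.2, 11.0 and 11.5 in IPA intact and 11.0, 10.9 and 11.0 in vehicle intact libraries. The groups were far apart for their spread, and the log2 changes were 0.49 ± 0.06 in IPA mice (limma adjusted p = 7.54e-06) and 0.56 ± 0.06 in vehicle mice (adjusted p = 1.91e-06), beside 0.14 and 0.18 for Rps27. Rpl22l1, the relative of Rpl22, was outside the name rule. It stood at 18.7, 21.0 and 24.5 in IPA crush and 23.1, 18.9 and 20.9 in vehicle crush libraries, against 14.4, 13.9 and 18.2 in IPA intact and 15.5, 16.1 and 14.4 in vehicle intact libraries. Its log2 change was 0.45 ± 0.11 in IPA mice (limma adjusted p = 0.00493) and 0.43 ± 0.11 in vehicle mice (adjusted p = 0.0059), beside 0.09 and 0.02 for Rpl22. No test of the difference between the genes of a pair was made.

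The other pairs differed in how near their changes lay. Rpl7 rose by 0.23 ± 0.07 in IPA mice and 0.28 ± 0.07 in vehicle mice, and its relative Rpl7l1 had 0.09 ± 0.05 (limma adjusted p = 0.186) in IPA mice and 0.13 ± 0.05 (adjusted p = 0.0496) in vehicle mice. Rpl36a had 0.25 ± 0.09 and 0.17 ± 0.09, and Rpl36al 0.27 ± 0.05 and 0.19 ± 0.05 in IPA and vehicle mice. Rpl3l, the striated-muscle relative of Rpl3, was at 1.38, 0.864 and 0.382 in IPA crush and 1.31, 0.545 and 1.19 in vehicle crush libraries, against 0.221, 0.483 and 0.441 in IPA intact and 0.27, 0.55 and 0.745 in vehicle intact libraries. The groups overlapped, and the summed level of 4 skeletal muscle markers ranged from 35.8 to 214.8 in IPA crush and 63.7 to 231.3 in vehicle crush libraries, against 26.1 to 65.1 in IPA intact and 53.2 to 89.4 in vehicle intact libraries. The log2 changes of Rpl3l were 0.59 ± 0.27 in IPA mice (limma adjusted p = 0.0956) and 0.56 ± 0.27 in vehicle mice (adjusted p = 0.107). Rpl3l was called in IPA mice by edgeR (log2 1.24, adjusted p = 0.0479) and DESeq2 (1.23, adjusted p = 0.0309), whose values for this low gene exceed all limma changes of members, and by limma without IPA crush replicate 3 (0.88, adjusted p = 0.0167), and in vehicle mice by limma without vehicle crush replicate 2 (0.80, adjusted p = 0.0304). The part of muscle RNA in Rpl3l was not tested.

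Rpl10l, a testis gene related to Rpl10, was at 0 in 11 of the 12 libraries and at 0.0545 in vehicle crush replicate 2, the value of 3 reads. In the libraries at 0, 3 reads, the limit that a count of 0 allows, were worth 0.0391 to 0.0597, a limit from counting error only. Rpl39l, the testis relative of Rpl39, was at most 0.112. Their partners are abundant. Rpl10, which joins the large subunit late in its making, rose by 0.26 ± 0.04 in IPA mice and 0.29 ± 0.04 in vehicle mice, and Rpl39 by 0.39 ± 0.11 and 0.35 ± 0.11. Single libraries decided the calls of Rpl39: that in IPA mice was lost without IPA crush replicate 3 (0.30), and that in vehicle mice without vehicle crush replicate 1 or vehicle intact replicate 2 or 3 (0.24 to 0.29). Rps4x, on the X chromosome, rose by 0.36 ± 0.08 in IPA mice and 0.37 ± 0.08 in vehicle mice, while a related row named Rps4y2 (Rps4l in GENCODE M21, outside the rule) rose by 0.67 ± 0.14 and 0.80 ± 0.14.

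Of ribosomal proteins that the name rule leaves out, Rack1, the signalling scaffold on the small subunit, stood at 151.6, 144.6 and 161.0 in IPA crush and 147.7, 155.4 and 148.4 in vehicle crush libraries, against 114.3, 113.2 and 112.6 in IPA intact and 103.7, 98.1 and 104.5 in vehicle intact libraries. Its log2 change was 0.42 ± 0.05 in IPA mice and 0.56 ± 0.05 in vehicle mice, with no overlap. Fau rose by 0.38 ± 0.08 and 0.41 ± 0.08, and Rps3a1 by 0.27 ± 0.07 and 0.29 ± 0.07. In a list of 7 genes outside the rule, 5 rose in IPA mice and 6 in vehicle mice, and 0 fell. All tested genes called higher were 21.2% and 23.6%. With GC and length trends removed, 5 and 3 of the list rose, against 22.4% and 23.7% of all tested genes. Rpl36al (0.02) and Rpl7l1 (0.08) then lost their calls in vehicle mice.

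Some values could not be tied to 1 gene. The row named Rpl24 carries the ID ENSMUSG00000022601, which GENCODE M21 gives to its neighbour Zbtb11, so its log2 change of 0.35 ± 0.05 in IPA mice and 0.31 ± 0.05 in vehicle mice is that of the row. Ribosomal protein genes have many near-identical processed copies in the genome, and no source used here says how reads were shared between copies. The table lists 220 rows named as pseudogenes of members, for 53 of the 78 tested members. Their summed level was at most 3.37% of that of the member (Rps16), and 4 members were above 2%. Copies listed under other names were not counted. Members lie on 19 chromosomes, with 14 on chromosome 7 and 4 on the X chromosome.

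Genes that work with the ribosome were followed in lists, whose counts stand beside 21.2% of all tested genes called higher and 22.5% lower in IPA mice, and 23.6% and 24.4% in vehicle mice. Of 9 translation elongation factors 7 rose and 1 fell after crush under each treatment, with a median log2 change of 0.31 in both. Eef1b2, which recharges the factor that brings aminoacyl-tRNA, changed most, at 196.9 ± 16.5 in IPA crush against 100.9 ± 2.75 in IPA intact libraries and 198.5 ± 2.92 in vehicle crush against 99.2 ± 1.04 in vehicle intact libraries (SD, n = 3 each; log2 0.96 and 1.00). Eif5a, which helps the ribosome past prolines, rose by 0.48 in IPA mice and 0.45 in vehicle mice, and Eif5a2 was the gene of the list that fell, by 0.49 in IPA mice and by 0.61 in vehicle mice. Of 36 initiation factors 21 rose and 2 fell in IPA mice (median 0.17), and 24 rose and 3 fell in vehicle mice (median 0.21). Eif3b, of the scaffold complex eIF3, rose by 0.61 in IPA mice and 0.64 in vehicle mice, and Eif6, which keeps free large subunits from joining, by 0.67 and 0.69.

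Of 11 other mRNAs known to carry a TOP motif 8 rose and 0 fell under each treatment, with medians of 0.32 in IPA and 0.27 in vehicle mice. Ipo5, a nuclear import receptor for ribosomal proteins, rose by 0.61 and 0.63, and Vim, an intermediate filament, by 0.72 and 0.77. The poly(A)-binding protein Pabpc1 rose by 0.50 and 0.58, and Tpt1 by 0.35 and 0.36. With each library's GC and length trends removed, 8 rose and 1 fell in IPA mice, and 8 and 2 in vehicle mice. That fit called 22.4% of all tested genes higher and 30.5% lower in IPA mice, and 23.7% and 32.2% in vehicle mice. In the list of 18 genes of mTORC1 and TOP mRNA control 3 rose and 6 fell in IPA mice, and 4 rose and 8 fell in vehicle mice, with a median of -0.12 in both. The rising counts are near the shares of all tested genes, and the falling counts are above them. With the trends removed, 4 of the 18 rose and 9 fell under each treatment (median -0.09), and the falling counts were again above the shares. The members that rose with the smallest p were Eif4ebp1, a repressor of cap-dependent initiation, at 12.5 ± 1.23 in IPA crush against 4.65 ± 0.643 in IPA intact and 11.8 ± 1.06 in vehicle crush against 4.11 ± 0.112 in vehicle intact libraries, and the kinase Rps6ka1 (log2 0.78 and 0.89). Pdcd4, an inhibitor of the helicase Eif4a, and Tsc1, an inhibitor of mTORC1, fell by 0.52 and 0.32 in IPA mice and by 0.58 and 0.34 in vehicle mice.

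Of 63 ribosome biogenesis factors 29 rose and 2 fell in IPA mice (median 0.17), and 32 rose and 2 fell in vehicle mice (median 0.19). Sbds, which frees Eif6 from new large subunits, rose by 0.54 and 0.52, and Rrp12, a factor of subunit export, by 0.62 and 0.64. Of 16 genes of RNA polymerase I and ribosomal DNA transcription 4 rose and 1 fell in IPA mice and 6 rose and 2 fell in vehicle mice, with medians of 0.05 and 0.11, where the rising count in IPA mice is near the share of all tested genes. Myc, a regulator of ribosome production, stood at 20.8 ± 2.31 in IPA crush against 12.3 ± 0.411 in IPA intact and 19.5 ± 1.24 in vehicle crush against 10.9 ± 1.45 in vehicle intact libraries (log2 0.73 and 0.81). The mitochondrial ribosome has its own nuclear-coded proteins. Of 75 tested, 10 rose and 8 fell in IPA mice and 12 rose and 5 fell in vehicle mice, with medians of 0.02 and 0.06, so that a smaller share rose than of all tested genes. With GC and length trends removed, 9 rose and 26 fell in IPA mice (median -0.08). In vehicle mice 11 rose and 25 fell (median -0.06), and both medians turned sign. That fit called 22.4% of all tested genes higher and 30.5% lower in IPA mice, and 23.7% and 32.2% in vehicle mice. Its median over all tested genes was -0.04 in both, and the falling counts are near those shares. In that fit 7 elongation factors rose and 2 fell under each treatment. Of the initiation factors 20 rose and 3 fell in IPA mice, and 21 rose and 5 fell in vehicle mice. Of the polymerase I genes 5 rose and 3 fell in IPA mice, and 6 rose and 3 fell in vehicle mice. Of the biogenesis factors 26 rose and 3 fell in IPA mice, and 27 rose and 4 fell in vehicle mice. The falling counts of these lists are below the shares of all tested genes. Mrpl9 rose by 0.35 and 0.38, and Mrpl42 was one that fell, by 0.28 in IPA mice.

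Some markers of other cells moved with the crush too. Their counts stand beside 21.2% of all tested genes called higher and 22.5% lower in IPA mice, and 23.6% and 24.4% in vehicle mice. Of 6 macrophage markers, 5 rose in IPA mice and 6 in vehicle mice, and their summed level was 70.1 to 88.5 in IPA crush and 83.2 to 84.2 in vehicle crush libraries, against 23.2 to 34.3 in IPA intact and 25 to 28.5 in vehicle intact libraries. All 4 markers of proliferating cells rose under both treatments, with sums of 24.6 to 27.1 in IPA crush and 27.7 to 28.9 in vehicle crush libraries, against 5.89 to 8.08 in IPA intact and 6.54 to 9.48 in vehicle intact libraries. None of these markers was at 0 in all libraries. Of 4 markers each, 3 neutrophil, 2 fibroblast and 1 endothelial marker rose in IPA mice, and 1, 2 and 1 of them rose in vehicle mice. Under both treatments, 1 of 4 is near the share of all tested genes. Of 6 sensory neuron markers 1 rose and 3 fell under each treatment, and of 4 satellite glia markers 1 rose and 1 fell in IPA mice and 1 rose and 0 fell in vehicle mice. The rising counts of both lists are near the shares of all tested genes. Yet the summed level of the satellite glia markers was 673.4 to 711.2 in IPA crush and 713.2 to 740.1 in vehicle crush libraries. In intact libraries it was 489.4 to 517.7 under IPA and 488.2 to 543.1 under vehicle, with no overlap. The sums of the sensory neuron markers overlapped between crush and intact libraries. The part of these cells in the ribosomal protein changes was not tested.

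IPA was compared with vehicle separately in each nerve state, to see whether the compound itself moved the ribosomal protein genes. With the nerve intact limma called 0 of the 78 members, against 0% of all tested genes in either direction, and the smallest adjusted p was 0.408. The median log2 change was 0.11 (1.08-fold), and 66 members were above 0 and 12 below. At an unadjusted p under 0.05, 35 members were higher and 0 lower, against 7.29% of all tested genes higher and 4.9% lower, and edgeR and DESeq2 also called 0. Of all tested genes edgeR called 0% in either direction, and DESeq2 0.00641% higher and 0.0128% lower. Levels did not overlap in 38 members that were higher under IPA and in 1 that was lower, Rpl23, against 12.7% and 12.5% of all tested genes.

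Among the members with the smallest p was Rps10, at 51.0, 53.9 and 52.5 in IPA intact libraries against 45.3, 42.9 and 48.3 in vehicle intact libraries, a log2 change of 0.20 ± 0.06 (limma adjusted p = 0.408). Rps15 was at 136.0, 138.9 and 133.4 in IPA intact against 115.5, 109.1 and 129.3 in vehicle intact libraries (log2 0.21 ± 0.06), and Rps18 at 67.3, 68.4 and 68.7 in IPA intact against 56.2, 59.8 and 64.1 in vehicle intact libraries (0.18 ± 0.05). In these genes the IPA libraries lay close together and above all vehicle libraries, which were more spread. The largest change was that of Rpl36, at 55.5, 57.0 and 57.1 in IPA intact against 44.9, 39.0 and 51.0 in vehicle intact libraries (0.34 ± 0.11, limma adjusted p = 0.408).

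After crush, limma called 0 of the 78 members, against 0% of all tested genes in either direction, the smallest adjusted p was 0.578 and the median log2 change was 0.06, with 58 members above 0 and 20 below. At an unadjusted p under 0.05, 13 were higher and 0 lower, against 4.55% of all tested genes higher and 3.51% lower, and edgeR and DESeq2 called 0. Of all tested genes edgeR called 0% in either direction, and DESeq2 0.0577% higher and 0.0385% lower. Levels did not overlap in 20 members higher under IPA and in 0 lower, against 5.86% and 5.58% of all tested genes. Rpl36 was at 84.1, 76.3 and 65.0 in IPA crush against 50.1, 61.2 and 66.3 in vehicle crush libraries, where the groups overlap (0.34 ± 0.11, limma adjusted p = 0.578). Rps10, at 73.3, 70.8 and 68.1 in IPA crush against 56.6, 65.1 and 64.8 in vehicle crush libraries, did not overlap (0.19 ± 0.06), and Rpl13 and Rpl27a had log2 changes of 0.25 ± 0.08 and 0.15 ± 0.05, also with adjusted p of 0.578.

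Averaged over both nerve states, IPA gave a median log2 change of 0.08 in the members. Limma called 0 of them, against 0% of all tested genes (smallest adjusted p 0.157), with 38 higher and 0 lower at an unadjusted p under 0.05, against 12% and 8.22% of all tested genes, and edgeR also called 0, against 0% of all tested genes. DESeq2 called 13 higher and 0 lower, against 1.06% and 1.28% of all tested genes. Among them were Rpl8, Rpl13, Rpl18, Rpl28, Rpl36 and Rplp2 of the large subunit, and Rps10, Rps15, Rps18, Rps19, Rps20 and Rps26 of the small. The call thus depends on the test, and the limma log2 changes of these named members were 0.13 to 0.34. In the interaction, which asks whether the crush response differed between IPA and vehicle mice, limma called 0 members, against 0% of all tested genes, with 0 at an unadjusted p under 0.05, against 0.673% of all tested genes above and 1.42% below 0. Both edgeR and DESeq2 called 0, edgeR against 0% of all tested genes and DESeq2 against 0% above and 0.0192% below 0. Its median was -0.04, and the smallest p values were those of Rps14 (-0.16 ± 0.08) and Rpsa (-0.14 ± 0.08).

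The IPA change of a member went with the base composition of its transcript. Across the 78 members, Spearman's rho between transcript GC content and the log2 change was 0.51 after crush and 0.68 with the nerve intact. For the crush changes it was 0.23 in IPA and 0.33 in vehicle mice. These are descriptions over genes that share the same libraries and are not independent. For the row named Rpl24, the GC content and length used here and in the removal of trends are those of Zbtb11. With the nerve intact the median log2 change was 0.18 in the 26 members of highest GC content (at least 53.3%) and 0.03 in the 26 of lowest (at most 49.2%), and after crush it was 0.11 and 0.00. The crush changes in vehicle mice were 0.43 in the high-GC and 0.35 in the low-GC members. The members' own GC content had a median of 51.3% (41.3% to 60.8%), against 50.5% in all tested genes, and their transcripts a median length of 816 bases, against 2900. The transcripts used for Rps15a (5179 bases) and Rps20 (3706 bases, the lowest GC content) were far longer. With the trends removed, their changes after crush in vehicle mice went from 0.37 to 0.44 and from 0.32 to 0.38. Whether these transcripts are the ones measured was not tested.

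**Figure D4:**
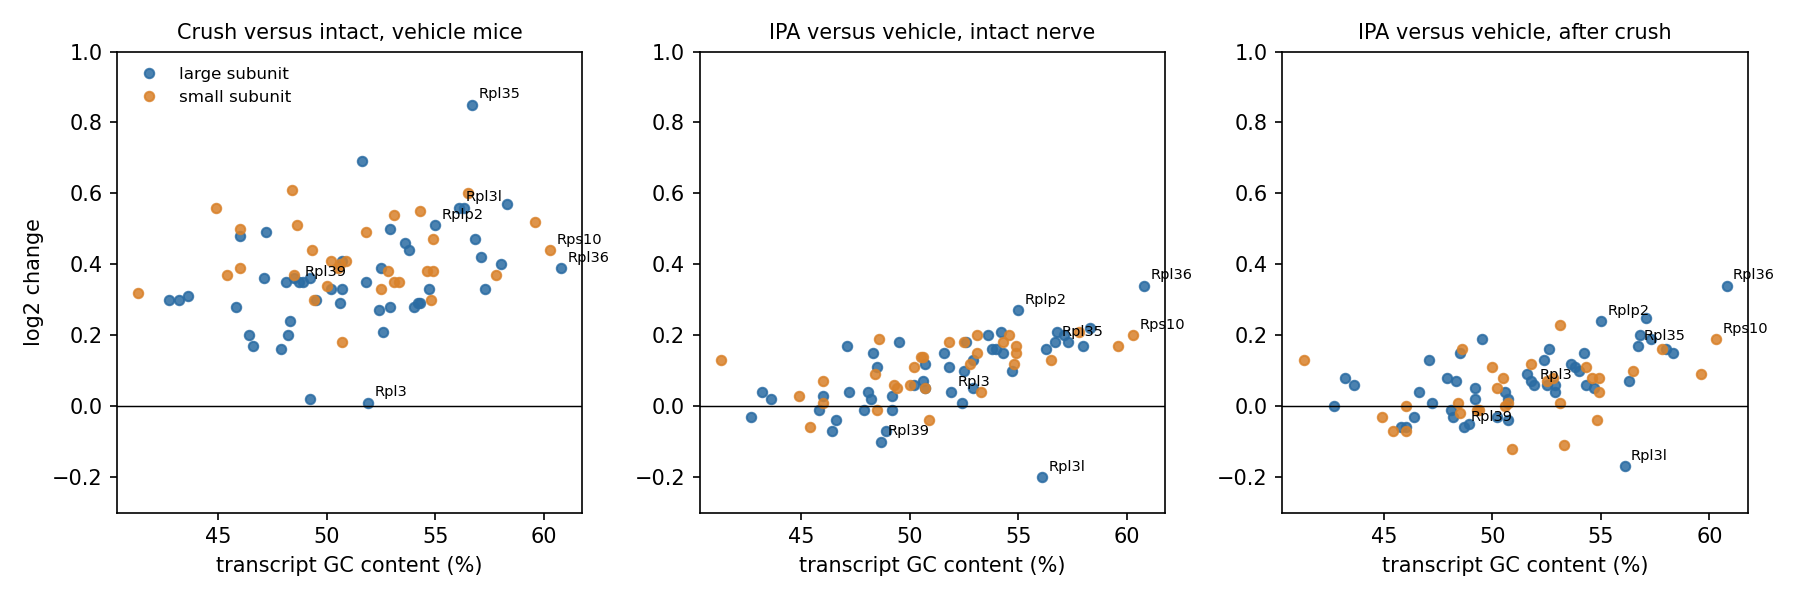
Log2 change of each member (vertical axis, same scale in the 3 panels) against the GC content of its transcript in percent, large subunit in blue and small subunit in orange. The crush changes (left) are spread above 0 at all GC contents, while the IPA changes with the nerve intact (middle) and after crush (right) are near 0 at low GC content and highest at Rpl36.

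The libraries themselves differed in how level went with GC content over all tested genes. The slope, in log2 units for 10 points of GC content, was 0.142, 0.0887 and -0.0306 in IPA crush libraries, -0.163, 0.0717 and 0.0546 in vehicle crush, 0.0225, 0.0693 and 0.00761 in IPA intact, and -0.107, -0.151 and -0.00514 in vehicle intact libraries. Within a group the members followed it: in vehicle crush replicate 1, Spearman's rho between GC content and the members' deviation from the group mean was -0.67, and in vehicle crush replicate 3 it was 0.65. In vehicle intact replicate 2 only 9 of the 78 members were above the mean of their group.

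With each library's trend on GC content and length removed, a step that takes out any difference going with composition whatever its origin, the median IPA change of the members was 0.04 after crush and 0.05 with the nerve intact. At an unadjusted p under 0.05, 16 members were higher and 2 lower after crush, against 4.86% and 3.5% of all tested genes, and 15 were higher and 0 lower with the nerve intact, against 4.02% and 4.44%. Averaged over both nerve states the median was 0.04, and 33 were higher and 1 lower at that level, against 6.89% and 6.57%. Limma called 0 in each of these contrasts, and rho with GC content was 0.16 after crush and 0.03 with the nerve intact. In the fit without removal of trends, leaving out vehicle intact replicate 2 alone took the median with the nerve intact from 0.11 to 0.06. Leaving out IPA crush replicate 3 in that fit took the median after crush from 0.06 to 0.04. For crush against intact, 62 rose and 0 fell in IPA mice with the trends removed (median 0.23, against 22.4% of all tested genes higher and 30.5% lower), and 62 rose and 1 fell in vehicle mice (median 0.22, against 23.7% higher and 32.2% lower). The one that fell was Rpl3 (-0.13, limma adjusted p = 0.0112). By subunit, 35 of the 47 large and 27 of the 31 small genes rose in IPA mice (medians 0.23 and 0.24). In vehicle mice 34 large and 28 small genes rose (medians 0.20 and 0.27). Of the members named above, Rpl11, Rpl10a, Rpl37 and Rps14 (0.10 each), Rpl28 (0.05) and Rpl39 (0.19) lost their calls in vehicle mice, and Rpl4 (0.06), Rpl28 (0.07), Rpl10a (0.10) and Rpl36a (0.12) theirs in IPA mice. Rpl35 kept the largest change, 0.70 in IPA mice and 0.66 in vehicle mice, and the median of all tested genes was -0.04 in both.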

How the data were processed

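Poly(A) libraries were made from RNA whose integrity number exceeded 8.0 and were read as pairs of 75 bases, per the labels' protocols. Tools that the submitters' processing notes list are FastQC 0.10.1, R 3.5.0, STAR 2.7.0, limma 3.38.3 and edgeR 3.24.3, beside the build mm10, and their roles are not stated. No counter is named: that step is not given in the sources used here. Of 1 table that the authors deposited, the name says FPKM, yet its values behave as CPM. Each library's values were whole multiples of a single step (100.0% within 1e-06), from which whole reads were recovered. One read was worth 0.013 to 0.0199, and the columns summed to 803444 to 818767. Each replicate pools its own mice, as the labels have it. No replicate pair agreed within sampling noise.

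All libraries entered 1 limma-trend model (limma 3.58.1, R 4.3.3) with 4 group means, 8 residual degrees of freedom, and Benjamini-Hochberg adjustment over 15603 genes. On recovered reads, edgeR 4.0.16 (quasi-likelihood) and DESeq2 1.42.0 were alternatives, as were pseudocounts of 0.1 and 1, no filter and a filter of 1, median-of-ratios and TMM scaling, a replicate block, removal of GC and length trends (spline with 4 degrees of freedom, GENCODE M21 transcripts, known for 97.9% of tested genes), and each library left out. The model was also run on simulated counts with known changes. These carried no GC or length trend, so that run cannot say how such trends affect the calls.

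The members, lists and motifs were chosen with earlier results of these data known. Members named are the 5 largest changes, those that did not pass, a set with known roles, related pairs, the 4 smallest p in each IPA contrast, and up to 4 of each list by p. A few genes are not reported here.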

Additional observations from a re-analysis of the deposited data

How the results depend on the processing

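The counts of members that rose after crush stayed within 1.5 times of the reported ones under every alternative run. Leaving out single libraries gave 66 to 70 in IPA mice and 67 to 74 in vehicle mice, with medians of 0.31 to 0.36 and 0.33 to 0.40. For IPA against vehicle those medians were 0.04 to 0.08 after crush, 0.06 to 0.13 with the nerve intact and 0.06 to 0.09 averaged. The interaction median was -0.07 to 0.00 and lost its sign without vehicle intact replicate 2. Rpl3 turned to -0.01 in IPA mice without IPA crush replicate 3 and to -0.02 in vehicle mice without vehicle intact replicate 2. With GC and length trends removed, with or without the replicate block, the crush medians were 0.23 in IPA and 0.22 in vehicle mice, the IPA median with the nerve intact was 0.05, 1 member was lower in vehicle mice, Rpl3 was at -0.08 and -0.13, and Rpl22 was at -0.06 in vehicle mice. DESeq2 gave 13 members higher for IPA averaged. The cause of these shifts was not tested.

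The labels give no pairing by replicate number. Correlations of same-numbered libraries ran from -0.252 to 0.286. They were not compared with those of other pairs, so they cannot settle whether samples were paired. With the replicate block 70 members rose in IPA mice and 72 in vehicle mice, and 0 were called for IPA. Low counts limit what can be said of Rpl3l, Rpl10l and Rpl39l.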
